A study of Mus musculus with 3 samples.

Results

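Endothelial cells take lipid from the blood and pass it to the tissue beneath them. Triglyceride-rich lipoproteins are split at the vessel wall by lipases that are held there by GPIHBP1, and ANGPTL4 shuts those lipases off. The freed fatty acids enter through CD36 and are carried inside the cell by the binding proteins FABP4 and FABP5, while SR-BI, the product of Scarb1, handles high- and low-density lipoprotein. PPARγ, the product of Pparg, is a fatty acid-activated transcription factor, and Cd36, Fabp4, Gpihbp1 and Angptl4 are known targets of it in one tissue or another. The genes described here were chosen by name, with earlier results of these data known: Cd36, Scarb1, Fabp4, Fabp5, Gpihbp1, Lipg, Angptl4 and Pparg. Of these 8 names, 7 were found among the 18287 genes listed in the deposited tables. Lipg, which encodes endothelial lipase, was not among the listed genes and is not analysed here.

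The cells were endothelial cells of the mouse aorta (MAECs), bought with their medium from a supplier and kept in culture. Strain, sex and age of the source animals are not given in the sources used here, and a culture lacks blood flow and the tissue that takes up the lipid. Untreated cells gave the control library. Cells exposed to glucose oxidase, an enzyme that turns glucose and oxygen into hydrogen peroxide, at 5 mU/mL for 30 min gave the oxidant library. Cells given the same oxidant dose and ethyl-2-hydroxybenzylamine (Et2HOBA, a scavenger of reactive lipid aldehydes called isolevuglandins) at 0.2 mM for 24 h gave the oxidant-plus-Et2HOBA library. Each of the 3 groups is 1 library. No difference below is backed by a replicate, and conditions could not be tested against each other. The order of the exposures and the time from oxidant to harvest are not stated, and no library with Et2HOBA alone was analysed here, so the scavenger and the time it was present cannot be told apart.

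The libraries held between 35005089 and 40212212 reads over the listed genes, and no listed gene stayed under 5 reads in all 3. All 10 endothelial markers, among them Pecam1, Cdh5 and Kdr, were abundant in each library; their summed normalized count was 321573 in control, 215191 with the oxidant and 204899 with oxidant plus Et2HOBA, and 9 and 8 of the 10 were below control. Of 7 markers of capillary endothelium 4 were listed, including Gpihbp1 and Cd36 themselves, and their sum went from 4398 to 1466 and 1318. Nearly all of that sum was Gpihbp1 and Cd36, so it restates their own drop and is no separate reading. The others, Rgcc and Tcf15, had 67, 14 and 2 reads and 46, 34 and 15 reads. Cd36, Fabp4 and Pparg are also genes of fat cells and macrophages. Of 6 adipocyte markers only Plin1 was listed, with 8, 0 and 4 reads in the same order. Of 6 macrophage markers 4 were listed, and Adgre1 and Ptprc were not. The summed normalized count of the 4 went from 8024 to 17833 and 27040, nearly all of it Cd68, a lysosomal gene. Cd14 rose as well, with 55, 136 and 272 reads and log2 ratios against control of 1.25 and 2.10. Csf1r had 6, 12 and 10 reads and Mrc1 had 5, 0 and 3. The fibroblast sum (3 of 5 listed) went from 133 to 1416 and 2738, nearly all of it Pdgfra, with Col1a1 at 28, 30 and 23 reads and Dcn and Lum not listed. The lymphatic sum (2 of 4 listed, Prox1 not among them) went from 18313 to 29524 and 39497 through Lyve1. The smooth muscle sum (5 of 6 listed) was 4859, 3717 and 3943, nearly all of it Smtn, with 4970, 3517 and 3996 reads. Of the 5 markers, only Smtn was below control with the oxidant, and 2 were with oxidant plus Et2HOBA. Myh11 had 19, 35 and 73 reads and Acta2 had 8, 18 and 13. Of 3 hepatocyte markers, Apoa1 was listed with 5, 1 and 1 reads. The part of these shifts in the results below was not tested. In RNA from whole cultures, fewer cells of a type and less RNA per cell cannot be told apart.

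The main result is a shared drop. Cd36, Fabp5, Gpihbp1, Fabp4 and Angptl4 were all lower in the oxidant library than in control, by 2.17- to 3.12-fold, while Pparg was 1.32-fold and Scarb1 1.13-fold lower. With Et2HOBA as well, Cd36, Fabp5 and Fabp4 stayed near their oxidant levels and Gpihbp1 was lower still, at 0.176 of control. A gene was called when the log2 ratio of normalized count plus 10 was 1 or more in size. By that limit 5 of the 7 genes were lower in the oxidant library, beside 8.6% of all listed genes, and none was higher, beside 4.07%. Against control, 4 of the 7 were lower in the oxidant-plus-Et2HOBA library, beside 8.04% of all listed genes, and again none was higher, beside 6.66%. All 7 are protein-coding. Among the 13285 listed protein-coding genes, 4.76% were lower and 4.53% higher with the oxidant. With oxidant plus Et2HOBA, these shares were 9.3% and 7.33%. The median log2 ratios of the 7 genes were -1.10 and -1.44, beside -0.01 and 0.00 over all genes. Both comparisons use the same control library, so each repeats any error of that library. The genes and the limit were chosen with earlier results of these data known, so the counts beside these shares are no test. The ranges in parentheses are exact Clopper-Pearson intervals at 95% for the ratio of a pair of libraries. They hold the error of counting reads and nothing of the spread between cultures.

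**Figure D1:**
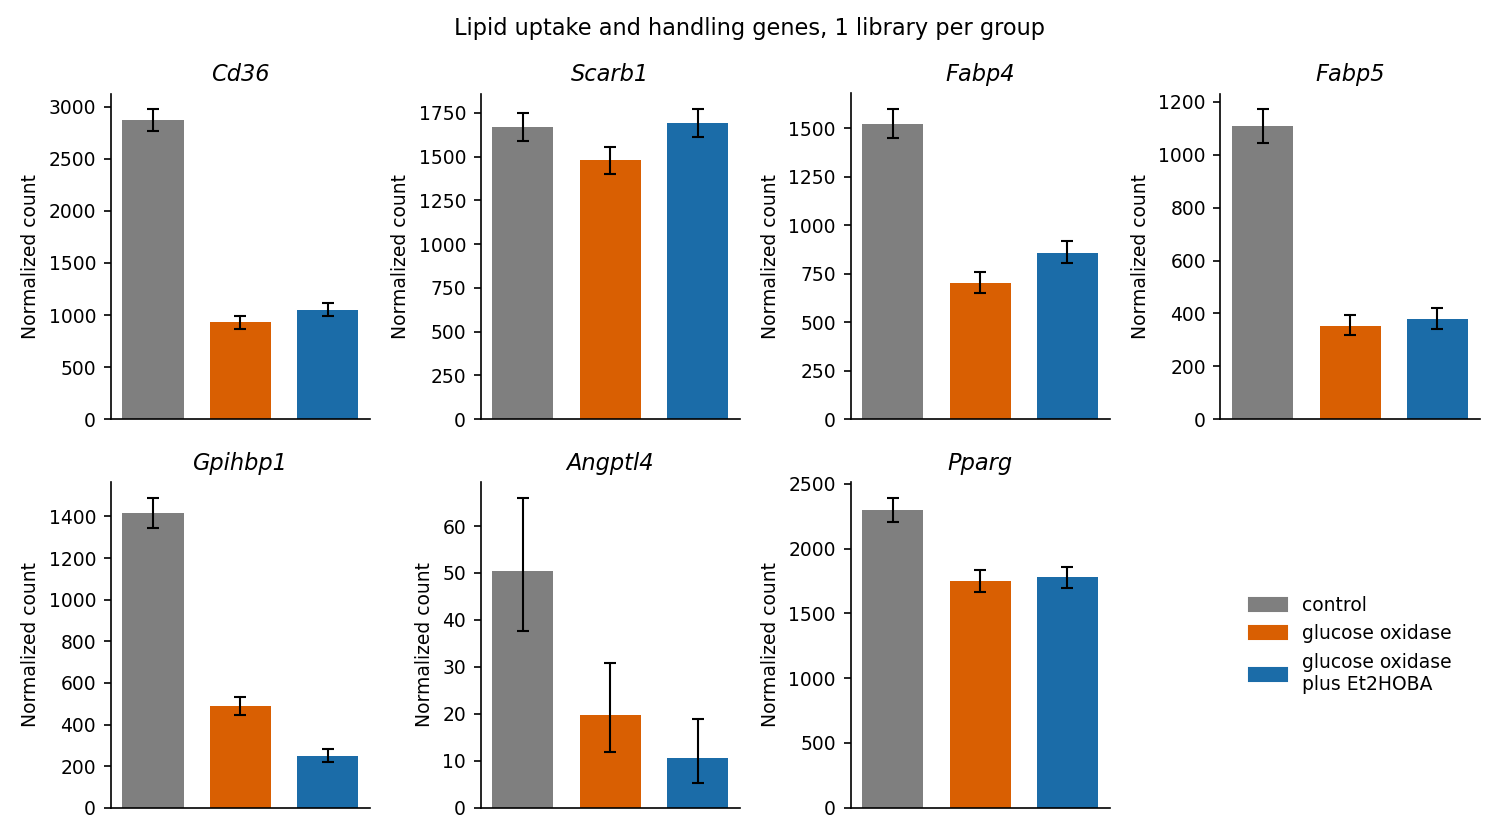
Normalized counts (reads divided by the library's size factor, y axis from 0) of the 7 listed lipid genes, 1 bar per library, with exact Poisson intervals at 95% for counting error. Cd36, Fabp4, Fabp5, Gpihbp1, Angptl4 and, by a smaller margin, Pparg stand highest in control. Gpihbp1 steps down a second time, from 487 to 249, in the library that also had Et2HOBA, and Scarb1 lies between 1479 and 1692 throughout.

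Cd36 encodes the membrane glycoprotein that binds long-chain fatty acids and oxidized lipoproteins (ENSMUSG00000002944.15, GRCm38 chromosome 5, 17781690 to 17888801, minus strand; 15 exons in its longest principal transcript). It had 2964 reads in control, 897 with the oxidant and 1093 with oxidant plus Et2HOBA. Control is therefore the high library and the treated pair lie close together. The oxidant library held 0.324 of the control level (0.300 to 0.349), a 3.09-fold drop, and the oxidant-plus-Et2HOBA library 0.366 (0.342 to 0.393). Between the treated libraries Cd36 was 1.13-fold higher with Et2HOBA (1.04 to 1.24). Under total-count scaling that ratio was 1.06 (0.970 to 1.16), so the gap lies outside counting error on only the first of these scales. No 50-base stretch of its longest transcript occurs in another annotated gene.

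Scarb1, the other uptake receptor, did not follow Cd36 (ENSMUSG00000037936.15, chromosome 5, 125277087 to 125341094, minus strand). Its reads were 1722, 1428 and 1757 in control, oxidant and oxidant plus Et2HOBA. The oxidant library was the lowest, at 0.886 of control (0.826 to 0.951), and the library with Et2HOBA was level with control at 1.01 (0.948 to 1.08). Under total-count scaling, which moves the median of all genes to -0.13, the last difference turned from a log2 ratio of 0.02 to -0.13.

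The carriers Fabp4 and Fabp5 lie close together on chromosome 3 and encode small cytosolic proteins, of 132 and 135 residues, that ferry fatty acids to other compartments. Fabp4 (ENSMUSG00000062515.3, 10204088 to 10208576, minus strand) had 1572 reads in control, 679 in the oxidant library and 893 in the one that also had Et2HOBA. The oxidant value was 0.462 of control (0.421 to 0.506) and the value with Et2HOBA 0.564 (0.519 to 0.613), which left Fabp4 outside the limit in that comparison at a log2 ratio of -0.82. With the oxidant the log2 ratio was -1.10, and in the authors' deposited table -0.94, short of the limit. It was 1.22-fold higher with Et2HOBA than with the oxidant alone (1.11 to 1.35), the widest upward gap among the 7 genes.

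Fabp5 (ENSMUSG00000027533.10, 10012548 to 10016607, plus strand) had 1142, 342 and 394 reads in the same order. Its 3.12-fold drop with the oxidant (0.320 of control, 0.283 to 0.362) was larger than that of Fabp4, and the intervals of the 2 genes do not overlap. With Et2HOBA the level was 0.343 of control (0.305 to 0.385), and the treated libraries could not be told apart, at a ratio of 1.07 (0.924 to 1.24).

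Fabp5 has copies in the genome that are annotated as processed pseudogenes, and part of its coding sequence is shown because reads from the shared bases can be assigned to gene or copy. The longest run it shares letter for letter with another gene, Gm6166, covers coding bases 10 to 188 of 405, counted from the A of the start codon in the GENCODE M21 transcript ENSMUST00000029046.8. Capitals mark the 59 bases, 69 to 127, that lie within the longest shared run of each of the 4 genes that have a 50-base stretch in common with Fabp5.
Fabp5: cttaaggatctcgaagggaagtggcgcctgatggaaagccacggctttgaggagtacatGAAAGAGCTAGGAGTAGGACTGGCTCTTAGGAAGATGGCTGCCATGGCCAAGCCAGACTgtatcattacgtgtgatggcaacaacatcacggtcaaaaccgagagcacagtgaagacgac
Of the 3189 stretches of 50 bases in the longest Fabp5 transcript, of 3238 bases, 4.42% occur in another gene. The transcript whose coding sequence is shown has only 987 bases, and its share was not computed. Gm6166 had 276, 103 and 97 reads in control, oxidant and oxidant plus Et2HOBA, Gm14328 had 50, 5 and 19, Gm6100 had 7, 0 and 2, and Gm13998 was not listed. Each of the listed copies had fewer reads in the treated libraries than in control. With the reads of the 3 listed copies added to those of Fabp5, the oxidant library was at 0.326 of control (0.293 to 0.363) and the library with Et2HOBA at 0.345 (0.311 to 0.382). Both values lie within the intervals of Fabp5 counted alone.

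Gpihbp1 encodes the anchored protein that carries lipoprotein lipase across the endothelial cell and holds it on the luminal face (ENSMUSG00000022579.10, chromosome 15, 75596628 to 75599481, plus strand; 4 exons, 228 residues). It had 1462 reads in control, 470 with the oxidant and 259 with oxidant plus Et2HOBA. The 3 libraries fall on 3 separate levels, since none of the counting intervals overlap. The oxidant library was at 0.344 of control (0.309 to 0.382) and the library with Et2HOBA at 0.176 (0.154 to 0.201), a 5.68-fold drop that ranked 213 from the bottom of all listed genes. Between the treated libraries Gpihbp1 was at 0.512 with Et2HOBA (0.438 to 0.597). Cd36, Fabp4 and Fabp5 had ratios above 1 in that comparison, and their intervals do not overlap that of Gpihbp1. On the log2 scale the step was -0.94, short of the limit, and it reached -1.03 under total-count scaling. None of the 7 genes was called between the treated libraries, beside 8.55% of all listed genes in either direction, 6.39% higher and 2.15% lower. Among listed protein-coding genes these shares were 3.32%, 0.971% and 2.35%.

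The lipase that GPIHBP1 carries, Lpl, was scarce in this culture, with 85 reads in control, 45 in the oxidant library and 59 with Et2HOBA as well; it was singled out after its values were seen. In the body, lipoprotein lipase is made mainly by fat and muscle cells and reaches the endothelium from there. Angptl4, the secreted inhibitor that unfolds the enzyme, was scarce too (ENSMUSG00000002289.16, chromosome 17, 33773750 to 33781830, minus strand). It had 52 reads in control, 19 with the oxidant and 11 with oxidant plus Et2HOBA. The oxidant library was at 0.391 of control (0.218 to 0.672) and the library with Et2HOBA at 0.210 (0.0989 to 0.408). The treated libraries could not be placed relative to each other (0.538, 0.231 to 1.19). So few reads make its log2 ratios depend on the pseudocount: -1.02 and -1.55 against control became -0.53 and -0.73 with a pseudocount of 50, inside the limit, and -0.37 and -0.87 in the authors' deposited tables.

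Pparg changed less than the genes it is known to drive (ENSMUSG00000000440.12, chromosome 6, 115360951 to 115490399, plus strand). It had 2373 reads in control, 1687 with the oxidant and 1847 with oxidant plus Et2HOBA. The treated libraries lay together, at 0.760 (0.714 to 0.809) and 0.773 (0.727 to 0.822) of control, and their ratio to each other was 1.02 (0.952 to 1.09). The log2 ratios of -0.39 and -0.37 stayed inside the limit. Counts of RNA say nothing of how much ligand the receptor had bound.

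**Figure D2:**
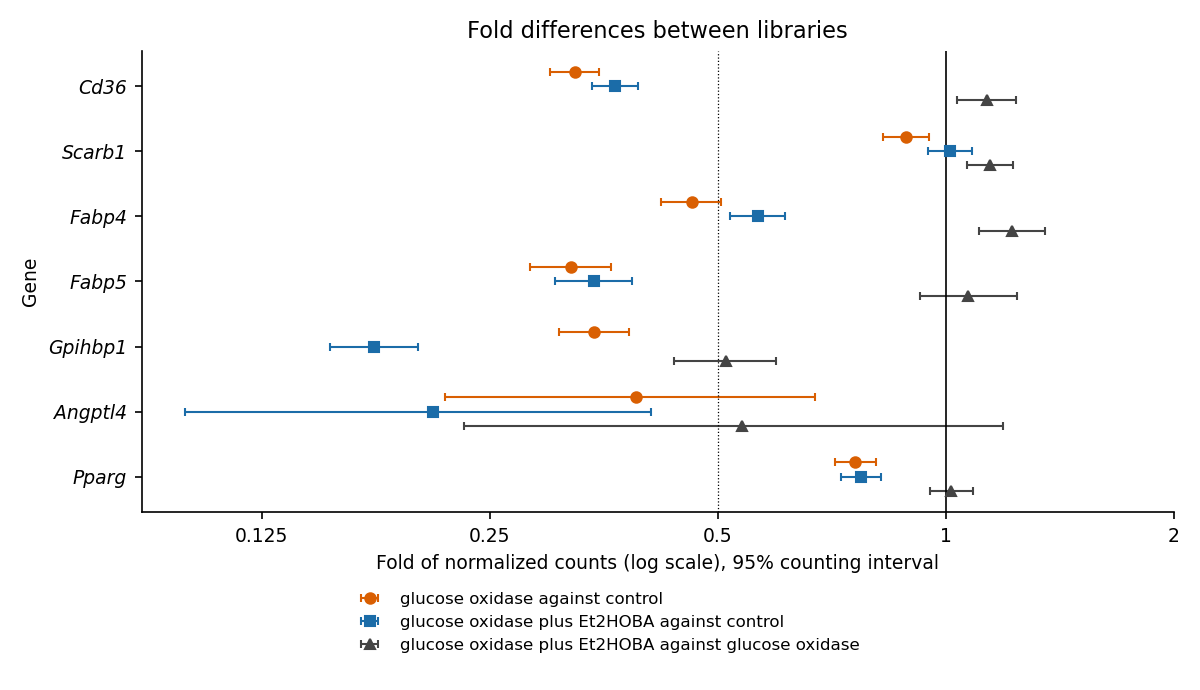
Fold of normalized counts between 2 libraries for each gene (x axis, log scale), with exact Clopper-Pearson intervals at 95%; circles compare oxidant with control, squares oxidant plus Et2HOBA with control, and triangles the treated libraries with each other. The solid line marks equal levels and the dotted line 0.5; circle and square lie farthest apart for Gpihbp1, at 0.344 and 0.176, and Angptl4, at 0.391 and 0.210, whose intervals are the widest and overlap.

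In the RefSeq promoter table for GRCm38.p6, 2 of the 8 names had entries, Cd36 with 1 start site and Pparg with 3. The stretches of 250 bases before the start sites are printed for the sites where no base falls in an annotated exon, because they show where the PPAR half-site does and does not occur. Capitals mark that half-site, AGGTCA or its reverse complement TGACCT. The Cd36 window is chr5:17835897-17836146, minus strand, and the Pparg window is chr6:115421816-115422065, plus strand, both written 5′ to 3′.
Cd36: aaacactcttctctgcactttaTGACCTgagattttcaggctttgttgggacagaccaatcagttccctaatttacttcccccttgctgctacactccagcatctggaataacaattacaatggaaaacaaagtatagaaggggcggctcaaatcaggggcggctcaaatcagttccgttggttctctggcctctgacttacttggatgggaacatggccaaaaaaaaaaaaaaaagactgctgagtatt
Pparg: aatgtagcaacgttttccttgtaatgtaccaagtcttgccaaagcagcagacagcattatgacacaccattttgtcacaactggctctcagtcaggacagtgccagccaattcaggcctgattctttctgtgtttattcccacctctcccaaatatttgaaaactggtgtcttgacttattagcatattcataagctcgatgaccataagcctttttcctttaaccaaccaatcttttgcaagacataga
The Cd36 window held 1 half-site, starting 228 bases before the start site. The Pparg window printed held none, and the other 2 Pparg windows, 82.4% and 63.6% G plus C, held 1 each, 28 and 9 bases before their start sites. Over all 32851 windows of the same length 14% held the half-site on either strand. The full PPAR element, the DR1 repeat, made of a pair of these half-sites in the same direction with a base between them, was searched on both strands and occurred in 0 of the 4 windows and in 0.0335% of all. The ATF4 motif TGATGNAA and the FOXO motif GTAAACA were in 0 of the 4, against 3.45% and 3.17% of all windows. The NRF2 motif TGACNNNGC was in 1 of the 4, a Pparg window, against 10.2% of all. These are letter matches within short windows, not binding sites.

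To compare genes with each other, normalized counts were divided by the length in kilobases of the longest principal transcript. The order depends on the length used, and a second length is given below. On the first scale Gpihbp1 and Fabp4 led the 7 genes in control, at 1717 and 1700.1 per kb, with counting intervals that overlap. They were followed by Pparg at 1301, Fabp5 at 1121, Cd36 at 845 and Scarb1 at 662, each apart from its neighbour, and Angptl4 came last at 15.2. With the oxidant Pparg led at 989 per kb, then came Fabp4 at 785, then Gpihbp1 at 590.1 and Scarb1 at 587, which could not be told apart, then Fabp5 at 359 and Cd36 at 273. With oxidant plus Et2HOBA, Pparg at 1006 and Fabp4 at 959.6 were the highest pair, with overlapping intervals, and Scarb1 was at 671 and Fabp5 at 384. Cd36 at 309.6 and Gpihbp1 at 302.3 also overlapped, and Angptl4 was at 3.20. These levels assume that each gene's reads come from 1 transcript form. The second scale, chosen after the values were seen, divides by all annotated exons merged, which for Fabp4 cover the whole gene span of 4489 bases. On it Cd36 and Pparg led in control, at 800.0 and 779 per kb, ahead of Gpihbp1 at 555 and Fabp4 at 339. Pparg led and Cd36 came second in both treated libraries, with Cd36 at 259 and 293 per kb. The places of Cd36, Fabp4 and Gpihbp1 in control are therefore not settled by these counts. On both scales Pparg was highest in the treated libraries, with Fabp4 overlapping it on the first scale in the library with Et2HOBA, and Angptl4 was lowest in all 3.

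**Figure D3:**
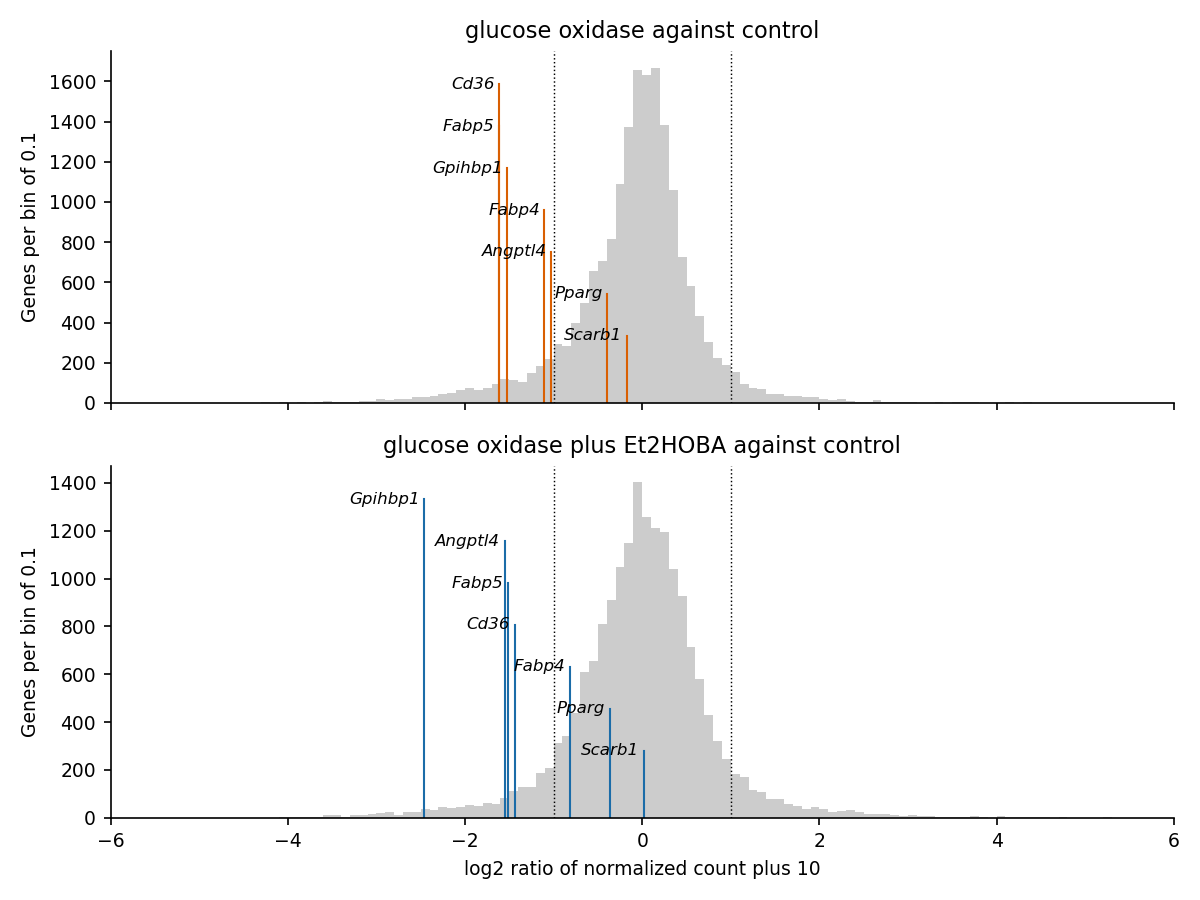
Distribution of log2 ratios of normalized count plus 10 over all 18287 listed genes (grey, genes per bin of 0.1), with the 7 lipid genes as coloured lines whose heights serve only to separate the names; dotted lines mark the limit of 1 in each direction. In the upper panel the lines of Cd36 and Fabp5 coincide at -1.62; in the lower panel Gpihbp1 stands apart at -2.46 and Scarb1 at 0.02.

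The wider pathway did not move as a block. Of 150 different genes on 8 lists of lipid handling, 118 were listed. With the oxidant, 8 were lower and 5 higher past the limit, 11% of the 118. That share was 12.7% over all listed genes and 9.3% over the protein-coding ones. With oxidant plus Et2HOBA, 13 were lower and 10 higher (19.5%, beside 14.7% of all listed genes and 16.6% of the protein-coding ones). Only 1 of the 118, Hilpda, was past the limit between the treated libraries, beside 8.55% of all listed genes and 3.32% of the protein-coding ones.

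Among 13 listed lipoprotein and scavenger receptors, 3 were lower and 1 was higher with the oxidant, and 2 were lower and 1 higher with Et2HOBA as well. Over all listed genes, 8.6% were lower and 4.07% higher with the oxidant, and 8.04% and 6.66% with oxidant plus Et2HOBA. The lower receptors included the stabilins, endothelial scavenger receptors that clear modified lipoproteins and hyaluronan. Stab2 had 1101, 359 and 252 reads in control, oxidant and oxidant plus Et2HOBA, with log2 ratios against control of -1.50 and -2.09. Stab1 had 13652, 5917 and 5532 reads, or -1.11 and -1.31. Lrp1, a large endocytic receptor for lipoprotein remnants, went the other way, from 3271 reads to 8897 and 13804, or 1.54 and 2.06. Olr1, the third lower gene with the oxidant, had only 13, 1 and 3 reads.

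Of 20 listed lipases, lipase cofactors and convertases, 2 were higher and 2 lower past the limit in each comparison with control. The shares over all listed genes were 4.07% higher and 8.6% lower with the oxidant, and 6.66% and 8.04% with Et2HOBA as well. Angptl6, a secreted relative of Angptl4, had 49 reads in control, 435 with the oxidant and 767 with oxidant plus Et2HOBA, opposite in direction to Angptl4. Dagla, which makes the endocannabinoid 2-arachidonoylglycerol from diacylglycerol, had 736, 2387 and 3489. The lower pair, Mgll and Angptl8, had 80, 13 and 11 reads and 33, 8 and 10 reads; both fell under the expression minimum of the naming rule and were named after their values were seen.

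Fatty acid transport and activation had 14 listed genes, of which 1 was higher with the oxidant and 2 were higher and 2 lower with Et2HOBA as well. The shares over all listed genes were 4.07% higher with the oxidant, and 6.66% higher and 8.04% lower with Et2HOBA as well. The acyl-CoA synthetase gene Acsbg1 rose from 61 reads to 596 and 1123, log2 ratios of 3.18 and 3.98. Acsl4, whose enzyme prefers arachidonic acid, had log2 ratios of 0.62 and 1.09. Cav1, the coat protein of caveolae, had 15131, 9192 and 7331 reads, and Dbi, the acyl-CoA-binding protein, had 3213, 1767 and 1609; with oxidant plus Et2HOBA they stood at 0.481 and 0.498 of control. The median of the list was -0.04 and -0.02.

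The lists for storage and burning of fatty acids had medians of opposite sign. Of 18 listed genes of lipid droplets and triglyceride synthesis, 13 had ratios above 0 and 5 below 0 in each comparison with control. Among all genes, 51.1% lay below 0 with the oxidant and 50% with oxidant plus Et2HOBA. A mean normalized count under 10 was found for 3 of the 18. Only Hilpda passed the limit with the oxidant, and Hilpda and Gpat3 with Et2HOBA as well. Hilpda, whose product inhibits the triglyceride lipase ATGL and coats lipid droplets, had 304 reads in control, 627 with the oxidant and 1488 with oxidant plus Et2HOBA, so that each step was about as large as the other: 2.20-fold (1.92 to 2.54) and 2.21-fold (2.01 to 2.43). Of 20 listed genes of fatty acid oxidation, 16 lay below 0 with the oxidant and 17 with oxidant plus Et2HOBA, beside 51.1% and 50% of all genes, with medians of -0.23 and -0.53. Only Cpt1a, the gate of mitochondrial fatty acid import, passed the limit, with 13851, 8199 and 5608 reads and a log2 ratio of -1.31 in the library with Et2HOBA.

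**Figure D4:**
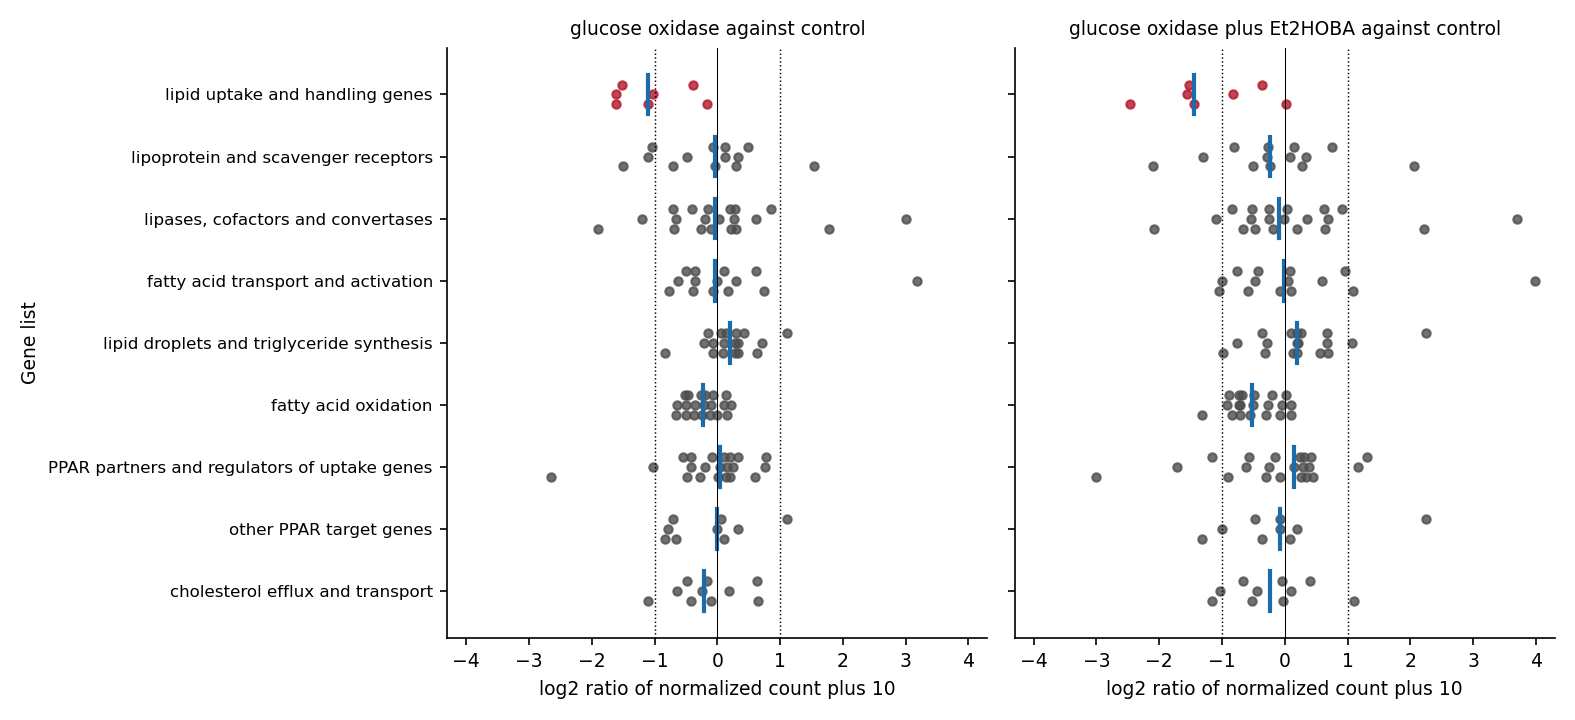
Log2 ratios against control (x axis, normalized count plus 10) of the 7 lipid uptake and handling genes (red) and of each listed gene on 8 lists of the wider pathway (grey); blue bars are medians and dotted lines the limit of 1. The red points have medians of -1.10 and -1.44, whereas the medians of the 8 lists lie between -0.53 and 0.21.

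PPAR partners and upstream regulators were mixed. Of 21 listed, 2 were lower with the oxidant, and 3 were lower and 2 higher with Et2HOBA as well. The shares over all listed genes were 8.6% lower with the oxidant, and 8.04% lower and 6.66% higher with Et2HOBA as well. No difference from these shares was tested. Ppard, the PPAR form expressed in most tissues, had 2052, 3289 and 5156 reads and a log2 ratio of 1.32 in the library with Et2HOBA, where Pparg stood at -0.37. Cebpb, a partner of PPARγ in fat cell formation, had 4887, 7730 and 11033 reads. Apln, a peptide ligand made by endothelial cells, had 5772, 2661 and 1750, and its receptor gene Aplnr, named after its values were seen, had 128, 11 and 7. Apelin signalling is known to restrain endothelial Fabp4 through FOXO1, whose gene Foxo1 had 1899, 1668 and 1600 reads. Meox2 and Tcf15 are known as a pair that drives Cd36 and other uptake genes in heart capillaries. Meox2 was not listed, and Tcf15 was scarce, with 46, 34 and 15 reads; Foxo1 and this pair were also named after the values were seen.

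Other PPAR target genes were mixed. Of 9 listed, 5 lay below 0 with the oxidant and 6 with Et2HOBA as well, beside 51.1% and 50% of all genes. Past the limit, 1 was higher and none lower with the oxidant, and with Et2HOBA as well 1 was higher and 2 were lower, Cpt1a and Ucp2. Over all listed genes, 4.07% were higher and 8.6% lower with the oxidant, and 6.66% and 8.04% with oxidant plus Et2HOBA. Ucp2, a carrier of the inner mitochondrial membrane, had 12004, 6539 and 6023 reads. Plin2, the lipid droplet coat, was named after its values were seen, and had log2 ratios of 0.33 and 0.19. The list's medians were 0.00 and -0.08, beside -1.10 and -1.44 for the 7 genes; the 7 were not drawn at random and no test of this gap was made.

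Of 10 listed genes of cholesterol efflux and transport, 1 was lower with the oxidant, and 2 were lower and 1 higher with Et2HOBA as well. The shares over all listed genes were 8.6% lower with the oxidant, and 8.04% lower and 6.66% higher with Et2HOBA as well. Abca1, the pump that loads cholesterol onto apolipoprotein A-I, had 7307, 4396 and 3280 reads, and a log2 ratio of -1.16 in the library with Et2HOBA. Stard4, a sterol carrier, had 6469, 2807 and 3175 reads and log2 ratios of -1.11 and -1.03. The lysosomal cholesterol exporter Npc1 had 4592, 6653 and 9979 reads and reached 1.11.

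The protein-coding genes with the most similar pattern were found by the distance between pairs of log2 ratios against control, among genes with a mean normalized count of 100 or more. With 3 libraries this rests on 2 ratios per gene that share the control. The nearest to Cd36 were Siglec1 (distance 0.0798), Fabp5 (0.0801) and Igfbp3 (0.146), and the nearest to Fabp5 were Siglec1 (0.0286), Cd36 (0.0801) and Myl4 (0.0871), so each of the pair was among the 3 closest genes to the other. Nearest to Fabp4 were Plk4, Plekhs1 and Dhrs3, at 0.0688 to 0.12. Gpihbp1 had other neighbours, Kif18b (0.0336), Ercc6l (0.0414) and F8 (0.047), the last with 2557, 809 and 471 reads. Angptl4, whose ratios have wide counting error, lay nearest to Mcm2, Mcm3 and Zfp36l1.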

How the data were processed

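Per the labels' protocols, stranded libraries were made from polyadenylated RNA; the submitters' processing notes name STAR, featureCounts and the build mm10. Raw counts per gene were deposited by the authors for the control and oxidant-plus-Et2HOBA libraries, with log-normalized values, per the file headers. For oxidant against control the authors deposited log2 differences alone, and for the treated libraries log2 differences of 7 genes, none described here. The differences fit a variance-stabilizing (arcsinh of root count) transform. Inverting it with the control counts gave the oxidant library's reads, and for 100% of the 18275 genes joined by symbol these lay within 0.01 of whole numbers; with 1 read added to control, 3.31% did. No header states the transform. The steps were tested on simulated data made with the same transform, so that test cannot show whether the transform is the one the authors used.

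Normalized counts are reads over the size factor of each library (median of ratios; 1.03, 0.965 and 1.04), and log2 ratios used a pseudocount of 10. With 1 library per group no count model was fitted. Depth was 35005089 to 40212212 reads; intervals cover counting error only. Python 3.11.15, scipy 1.17.1 and pandas 2.3.3 were used. Positions equal those of GENCODE M21 for all 17878 gene IDs of the same version. The genes, the lists and the limit were chosen with earlier results of these data known. From each list at most 4 genes past the limit with a mean normalized count of 100 or more were named, largest first. Alternatives were other pseudocounts, scalings, limits, the authors' scale and an expression filter.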

Additional observations from a re-analysis of the deposited data

How the results depend on the processing

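No paired analysis was possible because each group has 1 library. All called genes kept their direction under every alternative tried. The count of lower genes with the oxidant, 5 of 7, was 3 with the log2 differences the authors deposited. It was 4 with a pseudocount of 50 and 0 at a limit of 2 log2 units, beside 2.88% of all listed genes in either direction at that limit. At a limit of 0.5 log2 units it stayed 5, beside 33.8%. With oxidant plus Et2HOBA, 4 of 7 became 3 on the authors' scale and 3 with a pseudocount of 50. That count was 5 at a limit of 0.5 log2 units and 1 at a limit of 2, beside 40.1% and 3.8% of all listed genes. Between the treated libraries the count of 0 became 1 under total-count scaling, beside 8.71% of all listed genes. At a limit of 0.5 log2 units it was 2 of 7, beside 25.5% of all listed genes. A pair of small ratios changed sign under total-count scaling: Scarb1 with oxidant plus Et2HOBA against control, at -0.13, and Pparg between the treated libraries, at -0.07. Of 101 alternative values of single genes, 92 moved by no more than the gene's own counting error, which is wide for Angptl4. The 9 that moved further included Cd36, Fabp4, Fabp5 and Gpihbp1 with the oxidant on the authors' scale. Their log2 ratios were smaller in size there, at -1.45, -0.94, -1.27 and -1.26. The rest of the 9 compared oxidant plus Et2HOBA with control. Adding the reads of the copies of Fabp5 was chosen after seeing the data. The authors' own scale was not run for the treated libraries, since none of the 7 genes is in that table. The share of all genes past the limit, 12.7%, 14.7% and 8.55%, was 23.2%, 24.6% and 18.1% with a pseudocount of 1 and 6.36%, 9.27% and 3.2% with 50; on the authors' own scale it was 4.01% and 9.67% for the comparisons with control. Among the 7 genes, Angptl4 had the fewest reads and the widest intervals.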
